A study of Homo sapiens with 12 samples.

Results

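The sterol arm of cholesterol synthesis is the run of enzymes that turns squalene into cholesterol. It was taken here as 9 genes, SQLE, LSS, CYP51A1, TM7SF2, MSMO1, NSDHL, HSD17B7, EBP and DHCR7, found by symbol, with no measured value in the rule, though the set was proposed with earlier results of these data known. All 9 were found among the 13511 genes of the deposited count table. The counts came from poly(A)-enriched RNA of HepG2, a line grown from a human liver tumour that keeps many hepatocyte genes on, in 12 libraries, 3 per group. All cells were labelled wild type and grew in DMEM with glucose and serum, and no antibiotic other than doxycycline was added to any group. Every group had a pretreatment of 1 h and a further 24 h in the same compound. The DMSO group received the solvent, the A-485 group 5 µM A-485, which blocks the catalytic site of the acetyltransferases CBP and p300, the Dox group the solvent and 30 µg/ml doxycycline, and the A-485 and Dox group both. Doxycycline is an antibiotic that also inhibits translation by mitochondrial ribosomes. The layout asks what each compound changes and whether the response to doxycycline differs under A-485. HepG2 is a single tumour-derived line, and separate cultures are not stated in the labels. The p-values therefore rest on the spread among these libraries, which may be technical.

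Cholesterol is built in the endoplasmic reticulum, with the liver a main site. Isoprenoid units made from acetyl-CoA are joined into squalene, which is oxidised and closed into the ring of lanosterol, and methyl groups are then removed and double bonds shifted and reduced. When sterols in the membrane run low, SCAP carries the transcription factor SREBP-2 out of the endoplasmic reticulum, it is cut free, and it switches on the genes of the pathway through sterol regulatory elements, usually beside sites for NF-Y and Sp1.

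Promoter sequence was available from RefSeq (GRCh38.p14) for 8 of the 9 genes, all but SQLE. These 8 genes had 9 promoters, as DHCR7 had 2. The 250 bases before each start were searched on both strands for TCACNCC, the start of the sterol regulatory element, for CCAAT, the NF-Y site, for GGGCGG, the GC box, and for TGACGTC, the cyclic AMP element. TCACNCC was found before MSMO1 and NSDHL, in 22.2% of the 9 promoters, and in 13.1% of all 35116 promoters of the table. CCAAT was found before 7 of the 8 genes, all but CYP51A1, in 77.8% of the 9 promoters, and in 32.0% of all promoters. GGGCGG was found before 7 of the 8, all but NSDHL, in 77.8% of the 9 promoters, and in 42.6% of all promoters. Promoter 2 of DHCR7 held no match. TGACGTC was found before none of the 8 and in 3.12% of all promoters. A match describes letters only, and a missing match says only that these letters are not in the window. The windows of TM7SF2 and EBP lie wholly in annotated exons. The 3 sequences below are those of MSMO1 and DHCR7, the genes with the largest falls under A-485, and of NSDHL, the other gene with TCACNCC. Each runs 5′ to 3′ on the gene's strand over the bases of the window that hold no annotated exon, and capitals mark TCACNCC and CCAAT on either strand.
MSMO1, chr4:165327419-165327622, plus strand: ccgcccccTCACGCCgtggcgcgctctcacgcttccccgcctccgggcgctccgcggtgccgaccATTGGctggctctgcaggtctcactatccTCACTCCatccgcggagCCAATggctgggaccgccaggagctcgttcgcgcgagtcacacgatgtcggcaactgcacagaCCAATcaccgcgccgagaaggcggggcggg
DHCR7, chr11:71448436-71448643, minus strand: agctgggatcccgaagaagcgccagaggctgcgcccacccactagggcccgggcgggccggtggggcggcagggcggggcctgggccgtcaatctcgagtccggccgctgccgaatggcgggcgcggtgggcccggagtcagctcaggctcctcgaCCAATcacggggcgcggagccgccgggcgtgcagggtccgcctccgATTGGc
NSDHL, chrX:152830813-152830966, plus strand: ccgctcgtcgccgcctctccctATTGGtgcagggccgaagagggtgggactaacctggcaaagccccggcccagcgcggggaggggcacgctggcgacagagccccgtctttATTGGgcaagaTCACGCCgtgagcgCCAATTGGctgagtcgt
The MSMO1 stretch holds TCACNCC at 242 to 236 and at 156 to 150 bases before the start, with 1 CCAAT match between them and 2 after them. The NSDHL stretch holds 1 TCACNCC match, at 127 to 121 bases before the start, followed by a pair of overlapping CCAAT matches on opposite strands at 113 to 106. The DHCR7 stretch holds a CCAAT match on each strand, at 94 to 90 and at 48 to 44 bases before the start.

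The 12 libraries held 46600324 to 51773300 gene counts. Levels are given as CPM (counts scaled to a common library total, with TMM factors). Apart from pairs with Dox replicate 1, replicates of a group differed by more than counting error, with a chi-square per degree of freedom of 1.31 to 3.76. The highest value was that of A-485 replicates 1 and 3. The pairs that include Dox replicate 1 differed far more, at 866 and 884, and this library stands apart. Its departure moves with gene length: the median log2 ratio of its shares to those of the other Dox libraries ran from 0.68 in the shortest of 10 length bins to -1.17 in the longest. The biological coefficient of variation was 20.7% with this library and 1.52% without it. Each result is therefore given with all 12 libraries and again without it.

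Against the other Dox libraries, the share of Dox replicate 1 was higher for EBP (log2 ratio 1.36), TM7SF2 (1.10) and NSDHL (0.44). It was near equal for DHCR7 (0.08) and HSD17B7 (0.04), and lower for LSS (-0.67), MSMO1 (-0.81) and SQLE (-2.25). CYP51A1 had 8 counts there against 460 and 411, a log2 ratio of -5.55. The ratios of CYP51A1, SQLE, EBP and TM7SF2 lie outside the whole range of the bin medians, 0.68 to -1.17, and those of the other genes lie within it. The spread of genes within a bin was not measured. The 9 genes are not ordered by length alone.

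**Figure D1:**
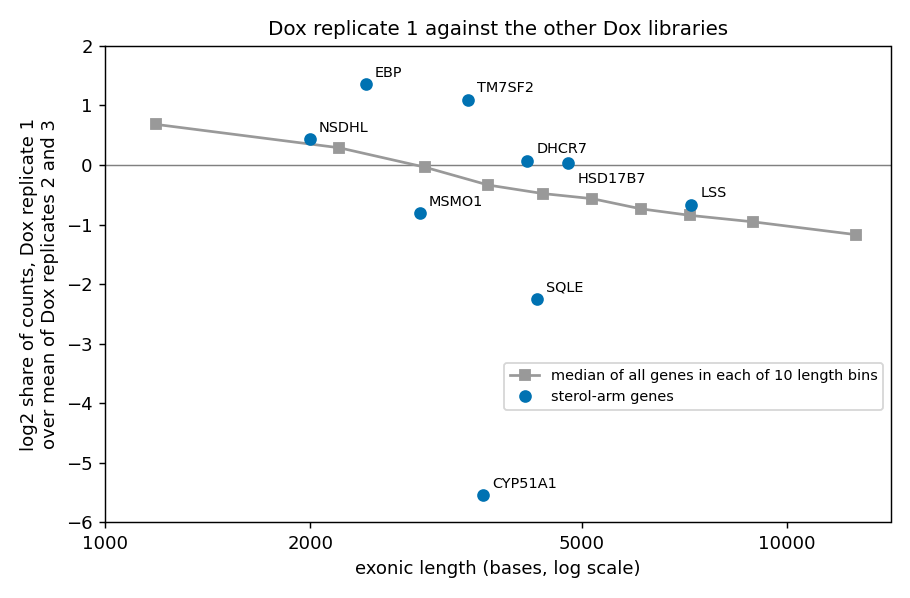
Log2 ratio of the share of counts in Dox replicate 1 to the mean share in Dox replicates 2 and 3 (y axis) against exonic length in bases (log x axis), for the 9 sterol-arm genes (blue) and as the median of all genes in 10 length bins (grey squares). CYP51A1 lies at -5.55 and SQLE at -2.25, and EBP lies at 1.36.

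The pathway opens with SQLE, the squalene monooxygenase, a rate-controlling step, and LSS, the cyclase that closes the ring to lanosterol. SQLE (ENSG00000104549, chromosome 8, 124998497 to 125022283, plus strand, GRCh38) stood at 256, 260.5 and 261 CPM in the DMSO libraries and at 65.7, 64.1 and 64.5 with A-485. It stood at 28.8, 99.3 and 101 CPM in Dox replicates 1 to 3 and at 62.9, 59.9 and 58.7 with both compounds. Every treated library was far below every DMSO library, Dox replicates 2 and 3 lay above all A-485 libraries, and Dox replicate 1 was the lowest of all. LSS (ENSG00000160285, chromosome 21, 46188141 to 46228824, minus strand) stood at 68.1, 70.0 and 71.8 CPM with DMSO and at 34.6, 33.9 and 33.8 with A-485. It stood at 28.8, 34.3 and 32.4 CPM with doxycycline and at 29.6, 28.8 and 28.6 with both. The LSS libraries of the 3 treated groups lay close together, below all DMSO libraries.

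CYP51A1 removes the first methyl group of lanosterol, and TM7SF2 reduces the double bond this leaves, a reaction that the lamin B receptor LBR also carries out. CYP51A1 (ENSG00000001630, chromosome 7, 92112151 to 92134803, minus strand) stood at 13.5, 12.6 and 13.9 CPM with DMSO and 7.45, 7.76 and 7.68 with A-485. It stood at 0.239, 9.68 and 8.63 CPM in Dox replicates 1 to 3 and at 8.77, 9.11 and 9.08 with both. All treated libraries were below the DMSO libraries, and those of A-485 were the lowest apart from Dox replicate 1. Of its 3584 exonic bases, 83.2% are shared with AC000120.2, CYP51A1-AS1 or AC000120.3, where reads can fall in the ambiguous share, which leaves 602 bases of its own. TM7SF2 (ENSG00000149809, chromosome 11, 65111845 to 65116384, plus strand) was the exception among the 9. It stood at 60.2, 58.7 and 59.3 CPM with DMSO and lay above that in every A-485 library, at 98.2, 101 and 105. It stood at 159, 54.5 and 54.0 CPM in Dox replicates 1 to 3 and at 85.7, 85.6 and 81.3 with both. Dox replicates 2 and 3 lay just under the DMSO libraries, and Dox replicate 1 lay above every other library.

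MSMO1, NSDHL and HSD17B7 act in turn to remove the remaining methyl groups, MSMO1 as the oxidase, NSDHL as the decarboxylating dehydrogenase and HSD17B7 as the reductase of the ketone that is left. MSMO1 (ENSG00000052802, chromosome 4, 165327623 to 165343160, plus strand) stood at 141, 147 and 146 CPM with DMSO and at 31.2, 29.7 and 30.2 with A-485. It stood at 41.7, 54.1 and 53.0 CPM with doxycycline and at 38.4, 37.3 and 39.5 with both. The 4 groups did not overlap, with A-485 alone the lowest and both compounds next. NSDHL (ENSG00000147383, chromosome X, 152830967 to 152869729, plus strand) stood at 40.1, 39.0 and 41.9 CPM with DMSO and at 16.7, 16.6 and 16.9 with A-485. It stood at 39.8, 21.9 and 20.9 CPM in Dox replicates 1 to 3 and at 15.5, 14.3 and 13.6 with both. Dox replicate 1 lay among the DMSO libraries, while replicates 2 and 3 lay between DMSO and A-485. HSD17B7 (ENSG00000132196, chromosome 1, 162790702 to 162812817, plus strand) stood at 29.7, 30.1 and 27.9 CPM with DMSO and at 13.1, 13.8 and 14.6 with A-485. It stood at 22.5, 16.9 and 15.2 CPM in Dox replicates 1 to 3 and at 11.99, 13.8 and 13.2 with both. The libraries with A-485 and those with both compounds overlapped, below all others. A near copy, HSD17B7P2, is in the table at 7.60 CPM with DMSO, so the split of reads between it and HSD17B7 is uncertain.

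EBP, an isomerase that moves a ring double bond, and DHCR7, the 7-dehydrocholesterol reductase that makes cholesterol itself, close the arm. EBP (ENSG00000147155, chromosome X, 48521158 to 48528716, plus strand) stood at 65.1, 68.3 and 67.4 CPM with DMSO and at 16.9, 16.5 and 17.4 with A-485. It stood at 174, 51.1 and 47.6 CPM in Dox replicates 1 to 3 and at 16.7, 17.2 and 16.8 with both. Dox replicate 1 was the highest of all libraries and Dox replicates 2 and 3 lay below DMSO, and the libraries with A-485 and with both compounds overlapped. DHCR7 (ENSG00000172893, chromosome 11, 71428193 to 71452868, minus strand) stood at 231, 233 and 234 CPM with DMSO and at 44.9, 46.3 and 47.7 with A-485. It stood at 153, 107 and 104 CPM in Dox replicates 1 to 3 and at 44.3, 46.3 and 43.4 with both. All Dox libraries lay between the DMSO libraries and the overlapping libraries of the other groups.

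**Figure D2:**
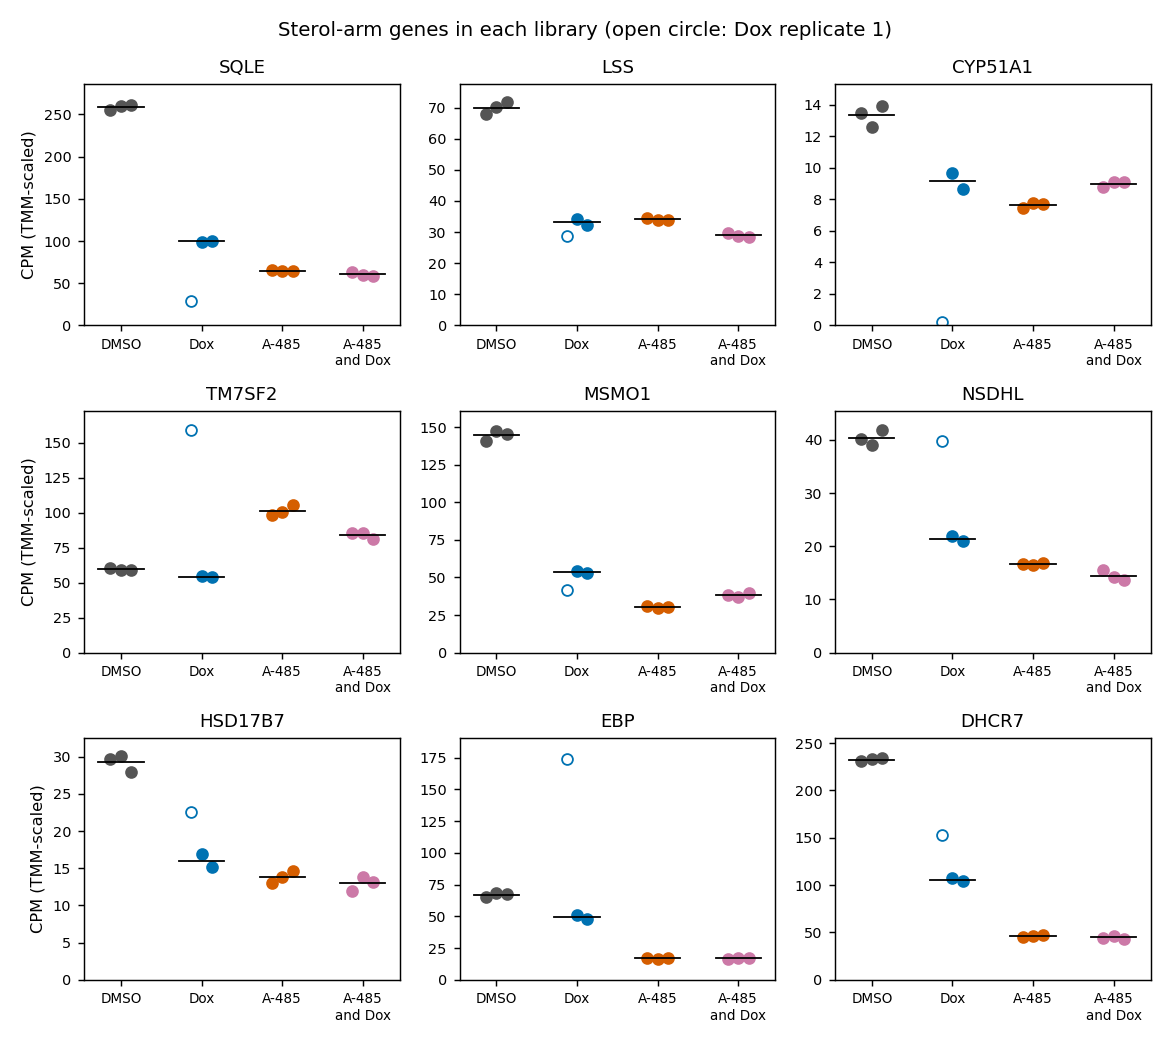
CPM of the 9 genes (y axes, each from 0) in each of the 12 libraries by group (x axes). Points are libraries, the open circle is Dox replicate 1, and lines are group means, for Dox over replicates 2 and 3. Apart from TM7SF2, whose A-485 libraries sit between 98.2 and 105 CPM against 58.7 to 60.2 with DMSO, each gene was lower in every A-485 library than in every DMSO library.

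The order of the genes by level was set on CPM per kilobase of exon. The place of CYP51A1 in it is uncertain, since its counts are divided by all its exonic bases, most of which are shared with other genes. With DMSO the mean level per kilobase fell from SQLE (60.2), DHCR7 (55.9) and MSMO1 (50.03) through EBP (27.8), NSDHL (20.2) and TM7SF2 (17.4) to LSS (9.67), HSD17B7 (6.12) and CYP51A1 (3.72). No neighbours in that order overlapped between libraries. With A-485 TM7SF2 led at 29.8 CPM per kilobase, followed by SQLE at 15.0, and DHCR7 and MSMO1 overlapped at 11.1 and 10.5. With both compounds TM7SF2 led again at 24.7, and SQLE and MSMO1, NSDHL and EBP, and HSD17B7 and CYP51A1 overlapped as pairs. Summed over the 9 genes, the level was 904 to 923 CPM with DMSO, 329 to 338 with A-485, 304 to 314 with both, and 436 and 449 in Dox replicates 3 and 2, against 648 in Dox replicate 1. In bulk RNA, fewer cells of a type and less RNA per cell cannot be told apart, and CPM is a share of each library.

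With A-485 alone, 7 of the 9 genes fell, to between 19.9% of the DMSO level for DHCR7 and 48.7% for LSS. MSMO1 fell to 21.0%, SQLE and EBP to 25% and 25.3%, and NSDHL and HSD17B7 to 41.5% and 47.4%. No gene was called higher. Genes were called at an adjusted p under 0.05 in edgeR's quasi-likelihood test over all 13511 genes, and 27.1% of all genes were called lower and 26.3% higher in this comparison. The log2 fold change (± SE) of DHCR7 was -2.33 ± 0.14 (edgeR adjusted p = 3.5e-07), that of MSMO1 -2.25 ± 0.10 (edgeR adjusted p = 4.9e-08) and that of SQLE -2.00 ± 0.37 (edgeR adjusted p = 0.0011). These are falls of 5.02-fold, 4.76-fold and 4.0-fold. The others called were EBP at -1.98 ± 0.43, NSDHL at -1.27 ± 0.21, HSD17B7 at -1.08 ± 0.13 and LSS at -1.04 ± 0.07, with edgeR adjusted p from 1.5e-06 to 0.003. CYP51A1, at -0.81 ± 0.73, and TM7SF2, at 0.77 ± 0.35, were not called, with edgeR adjusted p of 0.38 and 0.093.

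Both uncalled genes had groups that did not overlap, and their standard errors were 0.06 and 0.03 without Dox replicate 1, which enters the shared estimate of the spread. When it was left out the fold changes stayed as they were, and 8 genes were called lower and TM7SF2 higher (edgeR adjusted p = 7.4e-19 for CYP51A1 and 1.5e-32 for TM7SF2), where 43.7% of all genes were called lower and 46.6% higher. The groups were apart for all 9 genes, 8 lower and 1 higher, as for 43.6% and 46.3% of all genes. A fit of the DMSO and A-485 libraries alone called the same 8 lower and 1 higher, with 44.2% and 45.6% of all genes. The members' median log2 change was -1.27, against 0.04 over all genes tested. Scaling to library totals alone moved the median of all genes to 0.39 and the share of calls that were higher from 49.2% to 69.3%, and there 7 members were called lower and TM7SF2 higher.

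Doxycycline alone lowered 5 of the 9 genes, in a comparison where 7.08% of all genes were called lower and 9.01% higher. SQLE, MSMO1, LSS, HSD17B7 and DHCR7 were called, and none was called higher. The log2 fold change of MSMO1 was -1.54 ± 0.10 (edgeR adjusted p = 8.9e-06) and that of LSS -1.14 ± 0.08 (edgeR adjusted p = 1.3e-05), falls of 2.92-fold and 2.20-fold. DHCR7 was at -0.94 ± 0.13 (edgeR adjusted p = 0.0013), HSD17B7 at -0.69 ± 0.13 (edgeR adjusted p = 0.0079) and SQLE at -1.76 ± 0.37 (edgeR adjusted p = 0.011). The other 4 genes, with log2 fold changes of -1.10 ± 0.74 for CYP51A1, -0.55 ± 0.21 for NSDHL, 0.44 ± 0.41 for EBP and 0.59 ± 0.35 for TM7SF2, had edgeR adjusted p of 0.1 to 0.46.

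All 9 genes were called lower than with DMSO once Dox replicate 1 was left out, where 33.3% of all genes were called lower and 32.8% higher. MSMO1 stood at 37.0% of its DMSO level, SQLE at 38.6%, DHCR7 at 45.4% and LSS at 47.7%. NSDHL at 53.1%, HSD17B7 at 54.8%, CYP51A1 at 68.6% and EBP at 73.7% followed. TM7SF2 was at 91.3%, a log2 fold change of -0.13 (edgeR adjusted p = 0.00041). EBP and TM7SF2 thus changed sign with this library, EBP from 0.44 to -0.44 (edgeR adjusted p = 5.1e-17). The members' median log2 change was -0.94 with it and -0.91 without it, against 0.03 and -0.00 over all genes. Groups did not overlap for 6 genes, all lower, with Dox replicate 1 and for 9 without it, as for 20.5% and 38.2% of all genes, while 19.7% and 37.9% of all genes were apart and higher. A fit of the DMSO and Dox libraries alone called MSMO1 and LSS lower, where 0.319% of all genes were called lower and 0.75% higher.

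**Figure D3:**
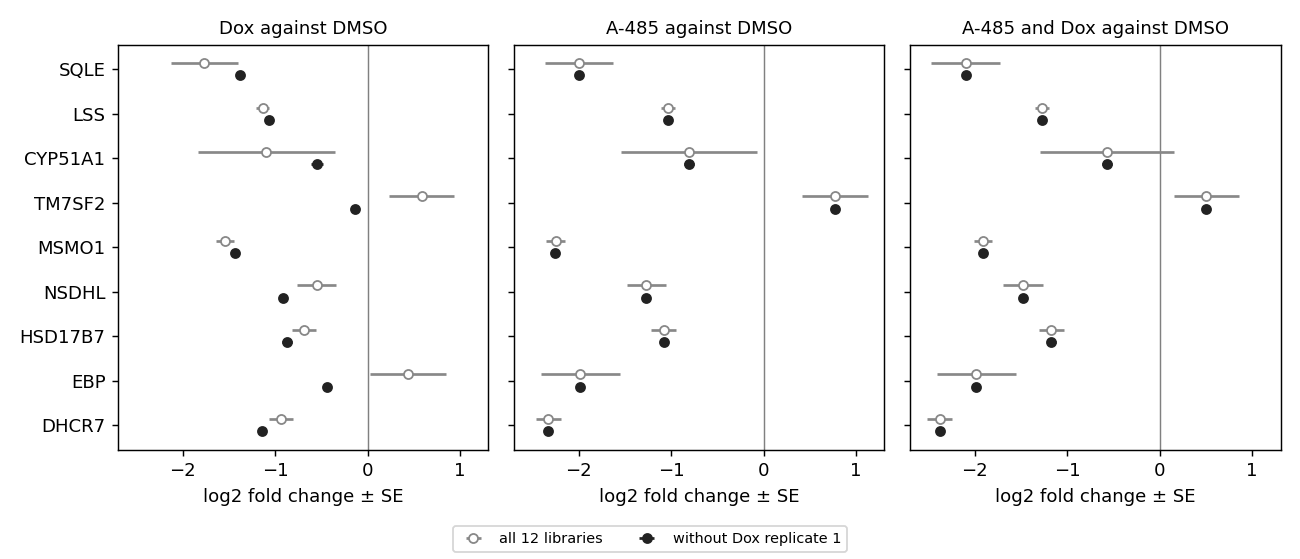
Log2 fold change against DMSO with its standard error (x axis) for each of the 9 genes (y axis) under Dox, A-485 and both compounds, fitted to all 12 libraries (open circles) and without Dox replicate 1 (filled circles). TM7SF2 lies at 0.77 under A-485, to the right of 0, and the other 8 genes lie between -2.33 and -0.81.

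With both compounds, each of the 9 genes lay within 1.26-fold of its level with A-485 alone. Against DMSO, 7 genes were called lower and none higher, and 28.5% and 27.4% of all genes were. The comparisons against DMSO share the DMSO libraries, so their values are set side by side only. The log2 fold change of DHCR7 was -2.38 ± 0.14 (edgeR adjusted p = 2.8e-07) against -2.33 with A-485 alone and -0.94 with doxycycline alone. MSMO1 was at -1.91 ± 0.10 (edgeR adjusted p = 1.3e-07) against -2.25 and -1.54. SQLE was at -2.10 ± 0.37 (edgeR adjusted p = 0.00082) against -2.00 and -1.76. Leaving out Dox replicate 1, 8 genes were called lower and TM7SF2 higher, at 0.50 (edgeR adjusted p = 7.3e-24), with 43.9% and 46.5% of all genes. The same 8 and 1 were called from these groups alone, with 44.6% and 46.1% of all genes, and had groups that did not overlap, as 44.1% and 46.5% of all genes did.

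Doxycycline added under A-485 called none of the 9 genes in edgeR with all 12 libraries, where 3.66% of all genes were called lower and 3.74% higher. At an unadjusted p under 0.05 there were 2, LSS, at -0.23 ± 0.07, and MSMO1, at 0.34 ± 0.10, with edgeR adjusted p of 0.099 and 0.067. DESeq2 called 1 lower and 1 higher, where it called 979 of all genes lower and 870 higher. Without sample quality weights limma-voom called none. With them it called 4 lower and 2 higher, where 4999 of all genes were called lower and 4096 higher. Without Dox replicate 1, which is not a library of either group, 4 genes were called lower, LSS (-0.23), TM7SF2 (-0.27), NSDHL (-0.21) and SQLE (-0.10), and 2 higher, MSMO1 (0.34) and CYP51A1 (0.24). There 36.1% of all genes were called lower and 29.9% higher. The same 6 genes had groups that did not overlap, as 36.7% and 30.4% of all genes did, and changed by at most 1.26-fold. A fit of these groups alone called them too, with 32.4% and 32.6% of all genes. HSD17B7, EBP and DHCR7 had overlapping groups, with log2 changes of -0.09, -0.00 and -0.05.

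A-485 added to doxycycline lowered 5 genes, EBP, DHCR7, NSDHL, HSD17B7 and MSMO1, and raised none, where 32.9% of all genes were called lower and 27.1% higher. The log2 fold change of DHCR7 was -1.44 ± 0.13 (edgeR adjusted p = 8.9e-06) and -1.24 without Dox replicate 1. EBP was at -2.42 ± 0.43 (edgeR adjusted p = 0.00094) and at -1.54 without it. Without that library SQLE (-0.72) and LSS (-0.20) were also called lower and TM7SF2 higher (0.63), where 43.6% and 44.2% of all genes were. CYP51A1 was not called in either fit, at 0.53 with that library and -0.03 without it (edgeR adjusted p = 0.7). Scaling to library totals shifted the all-gene median from -0.06 to 0.36, and there LSS, MSMO1 and TM7SF2 turned to 0.26, 0.02 and 0.44, none of them called, and HSD17B7 lost its call, at -0.04 in place of -0.48 (edgeR adjusted p = 0.69). The share of calls that were higher moved there from 45.1% to 67.1%. A fit of these groups alone called EBP and DHCR7, with 21.3% of all genes lower and 15.7% higher. Groups did not overlap for the 5 called genes, as for 33.7% of all genes lower and 34.0% higher, and for 7 lower and 1 higher without Dox replicate 1, as for 44.9% and 46.0%.

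The interaction tests whether the doxycycline effect under A-485 differs from that under DMSO, and a positive value means that the fall was smaller, or turned to a rise, under A-485. It was called for 3 genes, all positive, where 1.25% of all genes were called higher and 1.32% lower. MSMO1 had an interaction of 1.88 ± 0.14 on the log2 scale (edgeR adjusted p = 0.00017): it fell with doxycycline under DMSO, by 2.92-fold, and was 1.26-fold higher with it under A-485. LSS had 0.90 ± 0.11 (edgeR adjusted p = 0.003), from a fall of 2.20-fold to a value 1.18-fold lower. DHCR7 had 0.89 ± 0.18 (edgeR adjusted p = 0.036), from a fall of 1.92-fold to a value 1.04-fold lower. That of DHCR7 was lost, at edgeR adjusted p of 0.053 to 0.11, when any library other than Dox replicate 1 was left out. SQLE had an estimate of 1.67 ± 0.51 (edgeR adjusted p = 0.14), which did not pass. The call of LSS was lost under library totals alone, with edgeR adjusted p = 0.06.

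With Dox replicate 1 left out, 8 genes had a positive interaction and TM7SF2 a negative one, where 21.8% of all genes were called higher and 26.6% lower. MSMO1 (1.77), SQLE (1.28), DHCR7 (1.09) and LSS (0.84) led, and CYP51A1 (0.78), HSD17B7 (0.77), NSDHL (0.70) and EBP (0.44) followed. The edgeR adjusted p of these 8 was at most 9.9e-10, and TM7SF2 was at -0.14 (edgeR adjusted p = 0.0044). EBP turned from -0.44 with all libraries to 0.44 without this library. The members' median was 0.89 with it and 0.78 without it, against -0.05 and -0.02 over all genes. The interaction is on a log scale and the genes were already low with A-485, so it compares proportional falls, not differences in CPM.

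**Figure D4:**
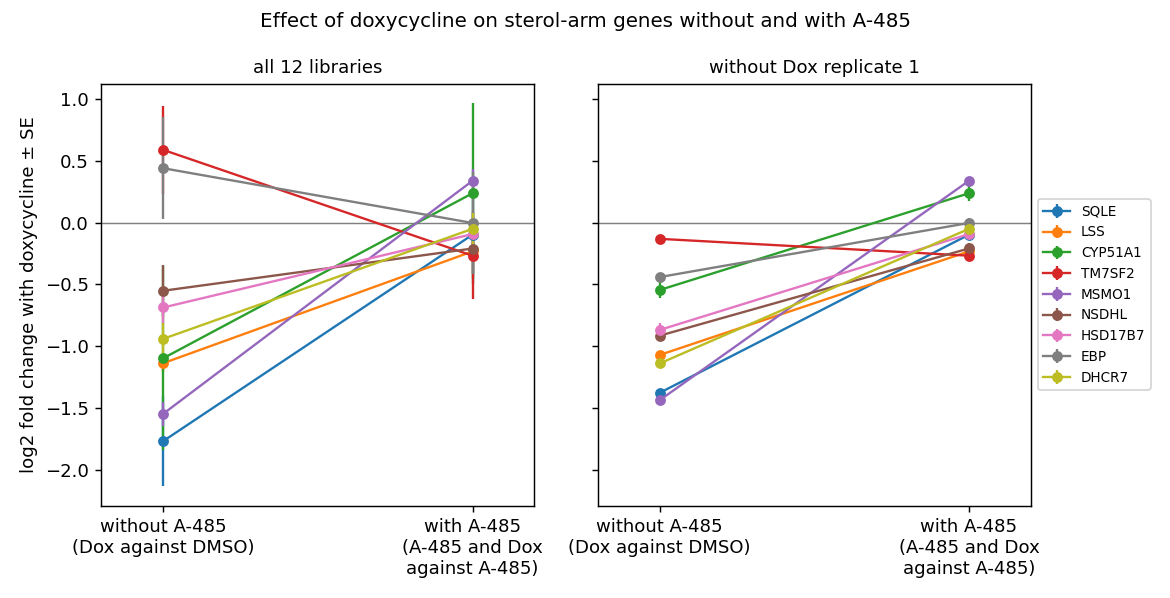
Log2 fold change with doxycycline and its standard error (y axis) without and with A-485 (x axis), 1 line per gene, fitted to all 12 libraries (left) and without Dox replicate 1 (right). On the right the 9 genes lie between -1.43 and -0.13 without A-485 and between -0.27 and 0.34 with it.

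Other genes of the pathway were taken from lists of known members. Their counts stand against 27.1% of all genes called lower and 26.3% higher with A-485, and 7.08% and 9.01% with doxycycline. Without Dox replicate 1 these shares were 43.7% and 46.6% with A-485 and 33.3% and 32.8% with doxycycline. All 10 genes of the mevalonate arm, which supplies squalene, were measured, and 9 fell with A-485, all but GGPS1, and 6 with doxycycline, or 8 without Dox replicate 1. IDI1, the isopentenyl diphosphate isomerase, had a log2 fold change of -1.88 ± 0.09 with doxycycline (edgeR adjusted p = 1.6e-06) and -1.61 ± 0.09 with A-485 (edgeR adjusted p = 3e-07). FDPS, which makes farnesyl diphosphate, and ACAT2, which joins acetyl-CoA units, had log2 fold changes of -0.80 ± 0.06 and -1.25 ± 0.15 with doxycycline and of -1.70 ± 0.06 and -1.90 ± 0.15 with A-485 (edgeR adjusted p at most 0.00064). The interaction was called positive for IDI1 and FDPS, where 1.25% of all genes were called higher and 1.32% lower. Without Dox replicate 1 it was called positive for 8 of the 10, as for 8 of the 9 sterol-arm genes. There 21.8% of all genes were called higher and 26.6% lower.

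The list of further sterol-arm genes had 6 measured members. Of these, A-485 lowered 4 and doxycycline 1, or 6 and 5 without Dox replicate 1, where FAXDC2 was higher with doxycycline. Leaving out that library also raised the shares of all genes called lower, to 43.7% with A-485 and 33.3% with doxycycline. SC5D, the desaturase one step before DHCR7, fell with doxycycline, at -1.02 ± 0.18 (edgeR adjusted p = 0.0044), and was at -0.35 ± 0.17 with A-485 (edgeR adjusted p = 0.12). FAXDC2 and EBPL fell with A-485, at -0.86 ± 0.08 and -0.62 ± 0.11 (edgeR adjusted p at most 0.00065).

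SQLE and CYP51A1 take electrons from POR, and MSMO1 from cytochrome b5. All 6 genes listed as electron donors or haem partners fell with A-485, where 27.1% of all genes were called lower. POR fell by 1.68 on the log2 scale and CYB5A fell by 1.64 (edgeR adjusted p at most 0.00017), and CYB5B and PGRMC1 were at -0.55 ± 0.07 and -0.77 ± 0.21 (edgeR adjusted p at most 0.011). With doxycycline, POR rose, at 0.66 ± 0.19 (edgeR adjusted p = 0.043), and CYB5B fell, at -0.66 ± 0.07 (edgeR adjusted p = 0.00024). When Dox replicate 1 was left out, 5 of the 6 fell with doxycycline, where 33.3% of all genes were called lower, and POR still rose, by 0.34.

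Of 13 measured genes of sterol sensing and uptake, A-485 lowered 7 and raised 1, and doxycycline lowered 4 and raised 1. Over all genes, 27.1% were called lower and 26.3% higher with A-485, and 7.08% and 9.01% with doxycycline. SREBF2, which encodes SREBP-2, fell with A-485, at -1.28 ± 0.08 (edgeR adjusted p = 4.6e-07), and was at -0.18 ± 0.08 with doxycycline (edgeR adjusted p = 0.14). STARD4, a cholesterol carrier, fell with doxycycline, at -1.38 ± 0.26 (edgeR adjusted p = 0.0061), and was at -0.06 ± 0.25 with A-485 (edgeR adjusted p = 0.84). Without Dox replicate 1 the counts were 9 lower and 4 higher with A-485, where 43.7% and 46.6% of all genes were called. With doxycycline they were then 6 lower and 5 higher, where 33.3% and 32.8% of all genes were called. Of 7 measured genes of oxysterol receptors and sterol disposal, A-485 lowered CYP27A1, SOAT2 and ABCA1 and raised MYLIP, and edgeR called none with doxycycline. Without Dox replicate 1, edgeR called 1 lower and 3 higher with doxycycline, beside the same 33.3% and 32.8% of all genes. The near copy HSD17B7P2 fell with A-485, at -1.67 ± 0.25, and with doxycycline, at -0.96 ± 0.25 (edgeR adjusted p = 0.00029 and 0.027).

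The labelled cell type was checked on its markers. All 7 hepatocyte markers listed, ALB, AFP, APOA1, APOB, TTR, SERPINA1 and HNF4A, were in the table. Their summed level was 53197 to 53625 CPM with DMSO, 19084 to 19351 with A-485, 43184 to 51620 with doxycycline and 17409 to 17686 with both. The markers did not move alike within this sum. With A-485 all 7 means were lower than with DMSO, SERPINA1 at 8658 against 10218 CPM and TTR at 5.71 against 107. In the mean of all Dox libraries ALB, AFP and APOB were lower, APOA1, SERPINA1 and HNF4A higher, and TTR near equal. Endothelial markers PECAM1 and TIE1, 2 of 5 listed, summed to 5.80 to 6.05 CPM with DMSO, 11.9 to 12.5 with A-485, 5.54 to 6.38 with doxycycline and 11.1 to 11.4 with both. Leukocyte markers CD3D and CD14, 2 of 3, summed to 3.16 to 3.78, 2.88 to 3.53, 2.46 to 8.20 and 1.92 to 2.39 in the same order. The stromal marker PDGFRB, 1 of 3, stood at 5.16 to 5.70, 0.600 to 0.870, 3.28 to 5.90 and 1.17 to 1.50. PTPRC, the defining leukocyte marker, is not among the genes of the table. The part of these markers in the falls of the sterol-arm genes was not tested.

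Over the 12 libraries, the other genes whose log2 CPM followed the members' mean profile most closely were CCNF (Pearson r = 0.990), SLC2A3 (0.988), UBAP2 (0.988), BIRC3 (0.987) and HMGB3 (0.987). Without Dox replicate 1 the leading genes were CDC25B (0.999), CCNB1 (0.998), AKR1B1 (0.998), TUBA1C (0.997) and S100A10 (0.997). These are descriptions over 12 or 11 libraries in 4 groups that share treatments, and give no test. Among the members, the correlation with their own mean over the 11 libraries was 0.93 or above for 8 genes and -0.75 for TM7SF2, and with Dox replicate 1 that of CYP51A1 was 0.30 and that of EBP 0.66.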

How the data were processed

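Libraries enriched for poly(A) were run on a BGISeq500, per the labels' protocols. Values in the deposited table are unnormalised counts of reads per gene. Per the submitters' processing notes the tools were STAR 2.6.0a, for alignment to GRCh38, and HTSeq 0.10.0, for counting. Its strand setting and annotation release are not given in the sources used here, and antisense reads may not be separated. Each gene exceeds 1 CPM in at least 2 libraries, and lower genes were not analysed here. Entries naming no gene were left out of totals and tests: ambiguous reads were 9.10 to 12.3% of a library, multimapping reads 2.96 to 3.76%, reads outside genes 3.30 to 4.09% and unmapped reads 1.80 to 8.93%. Reads shared by overlapping genes are missing from both.

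The 9 genes, the further lists and the tests were chosen with earlier results of these data known. All 13511 gene identifiers matched GENCODE 29 (GRCh38), used for positions and exonic lengths. Counts were tested in R 4.3.3 with edgeR 4.0.16, with TMM factors, robust glmQLFit, glmQLFTest and 1 coefficient per group over all 12 libraries, and Benjamini-Hochberg adjustment over all genes. The script was tested on simulated data with the same spread in every library, so that test does not cover a library like Dox replicate 1. Standard errors are the log2 fold change over the root of F, and levels are CPM on TMM-scaled totals. Of each further list, the text names up to 3 genes with the smallest unadjusted p in each single-compound comparison, and counts cover whole lists. Genes alike in profile are the 5 non-members of highest r among genes at a mean log2 CPM of at least 3. Alternatives were DESeq2 1.42.0, limma 3.58.1 (voom, with and without quality weights), other scalings, filters on low counts, fits of the compared groups alone, a replicate block and leaving out each library. Reads carry no molecular identifiers, so counting error is a lower limit. No library pair agreed within sampling noise, and all 12 were counted as separate. Values of some listed genes outside the 9 are not reported here.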

Additional observations from a re-analysis of the deposited data

Results flagged for a closer look

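The effect of doxycycline differed with and without A-485 for 3 of the 9 genes by the interaction test in edgeR, where 1.25% of all genes were called higher and 1.32% lower. The interaction on the log2 scale was 0.90 for LSS, 1.88 for MSMO1 and 0.89 for DHCR7. Under A-485 the proportional change of LSS and DHCR7 with doxycycline was smaller, and the estimate of MSMO1 was above 0. DHCR7 lost its call under a replicate block (edgeR adjusted p = 0.086) and when any library other than Dox replicate 1 was left out, and LSS lost its call under library totals alone (edgeR adjusted p = 0.06). Without Dox replicate 1 the values were 0.84, 1.77 and 1.09.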

How the results depend on the processing

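Of all results for single genes under the alternatives, 1081 kept direction and side of the threshold. A further 58 gained a call, 20 lost it and 20 turned sign. A turned sign was counted first, so the gained and lost calls leave out results that also turned sign. Of the 1081, 54 came from the fit with no filter on low counts, which repeats the main fit, as that tested all 13511 genes. Another 580 came from leaving out 1 library other than Dox replicate 1. Without Dox replicate 1, 30 results kept both, 19 gained a call and 5 turned sign. Over the fits that leave out 1 library each, members called lower with doxycycline ran from 5 to 9, members called higher from 0 to 1 with A-485, with both against DMSO and with both against Dox. For both against A-485 they ran from 0 to 4 lower and 0 to 2 higher, and for the interaction from 2 to 8 higher and 0 to 1 lower. The upper end came without Dox replicate 1 each time. All genes called moved in the same fits, from 509 to 4496 lower with doxycycline. Those called higher ran from 2952 to 6294 with A-485, 3087 to 6284 with both against DMSO and 3071 to 5972 with both against Dox. For both against A-485 they ran from 217 to 4872 lower and 257 to 4040 higher. For the interaction they ran from 62 to 2939 higher and 60 to 3597 lower. Over the same fits, the log2 change with doxycycline ran from -0.13 to 0.85 for TM7SF2 and from -0.44 to 0.75 for EBP. For both against Dox it ran from -0.0270 to 0.99 for CYP51A1 and from -0.34 to 0.63 for TM7SF2, for both against A-485 from -0.0208 to 0.0163 for EBP, and for its interaction from -0.75 to 0.44.

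With limma-voom and sample quality weights, where Dox replicate 1 had a weight of 0.00376, 9 members were called lower with doxycycline, 1 higher in each of A-485, both against DMSO and both against Dox, 4 lower and 2 higher in both against A-485, and 8 higher and 1 lower in the interaction. Over all 13511 genes that fit called 4569 lower and 4513 higher with doxycycline, in place of 957 and 1217. In the interaction it called 3787 lower and 3023 higher, in place of 179 and 169. It called 6344 genes higher with A-485, 6308 higher with both against DMSO and 5990 higher for both against Dox. For both against A-485 it called 4999 lower and 4096 higher. TM7SF2 and EBP turned to -0.13 and -0.44 with doxycycline, CYP51A1 and TM7SF2 to -0.0218 and 0.63 for both against Dox, and EBP to 0.0127 for both against A-485 and 0.45 in the interaction. Without the weights TM7SF2 turned to 0.13 for both against Dox. A fit of the compared groups alone called 2 lower with doxycycline, 1 higher with A-485, 1 higher with both against DMSO, 2 lower for both against Dox, and 4 lower and 2 higher for both against A-485, where EBP turned to 0.0179. The shares of all genes for these fits are given with each comparison above. Library totals alone called 1 higher with A-485 and with both against DMSO and 3 lower for both against Dox, where LSS, TM7SF2 and MSMO1 turned to 0.26, 0.44 and 0.0196. Of all genes, 5502 were called higher there with A-485, 5573 higher with both against DMSO and 2793 lower for both against Dox. DESeq2 called 1 lower and 1 higher for both against A-485 and 5 higher in the interaction. Over all genes it called 1577 lower with doxycycline in place of 957, 979 lower and 870 higher for both against A-485 in place of 494 and 505, and 535 lower and 542 higher in the interaction in place of 179 and 169. A minimum mean of 100 counts called 1 higher for both against A-485. The causes were not tested.

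No pairing by replicate number was seen. Correlations of deviations from group means ran from -0.25 to 0.11 for same-numbered libraries and from -0.23 to 0.25 for the others. Both ranges end on pairs with Dox libraries, whose deviations Dox replicate 1 dominates, so those pairs cannot decide pairing. With a replicate block, 2 members in place of 3 were called in the interaction, with DHCR7 losing its call at a log2 interaction of 0.90 (edgeR adjusted p = 0.086), and TM7SF2 turned to 0.0237 for both against Dox. With Dox replicate 1 in the fit the standard errors of CYP51A1, TM7SF2 and EBP were 0.35 to 0.74 in the comparisons of 2 groups, against 0.024 to 0.066 without it.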
